A study of Mus musculus with 4 samples.

Results

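The 8 genes described here encode receptor chains for cytokines of the common gamma chain family and for IL-6: Il2ra, Il2rb, Il2rg, Il7r, Il4ra, Il21r, Il6ra and Il6st. They were taken by symbol from the 32285 genes of both single-cell count matrices, and all 8 were found in both. None of them served to define a class of cells. Hepatic CD4+ T cells had been sorted from mice with diet-induced steatohepatitis and sequenced on the 10x Genomics 5′ platform, together with their T cell receptors. The library labelled WT came from wild-type mice, and the library labelled dKO came from mice of the genotype Nr4a1 fl/fl Nr4a2 fl/fl Cd4Cre, in which Cre driven by Cd4 regulatory sequences recombines both floxed alleles in T lineage cells. All mice were fed the choline-deficient, high-fat diet CD (60 kcal% fat, 0.1% methionine) for 8 weeks, and each library pooled cells of 2 male mice. There was thus 1 library per genotype, so no difference between the libraries could be tested. Every interval below covers counting error only and not the spread between mice.

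The common gamma chain, encoded by Il2rg, is the shared signaling subunit of the receptors for IL-2, IL-4, IL-7, IL-9, IL-15 and IL-21. IL-2 binds with high affinity to a complex of Il2ra (CD25), Il2rb (CD122) and Il2rg, whereas the pair of Il2rb and Il2rg suffices for lower-affinity binding and also serves IL-15. Regulatory T cells (Tregs), which are defined by the transcription factor Foxp3, carry much CD25 and depend on IL-2 made by other T cells. IL-7 receptor, made of Il7r and Il2rg, maintains naive and memory T cells and innate lymphoid cells and is classically low on Tregs. IL-6 binds Il6ra, and this complex recruits gp130, encoded by Il6st, which is also the signaling chain for several related cytokines.

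After filtering, the WT-labelled library held 10556 cells with 23437516 UMIs (median 1679 per cell), and the dKO-labelled library held 17462 cells with 37794986 UMIs (median 1685). Of the 28247 cell barcodes deposited, summed over both libraries before filtering, 245 barcodes occurred in both. Deleted genes went against the labels: over all cells, Nr4a1 was at 725 CPM (UMIs of a gene per 1000000 UMIs) in the WT-labelled library and 1659 CPM in the dKO-labelled library, and Nr4a2 at 183 and 306 CPM. The counts are per gene and do not separate the floxed exons, so these values check neither deletion nor its absence. T cell markers were present in the classes gated as T cells (Cd3e 938 and 1244 CPM, Cd4 254 and 874 CPM), and the libraries also held cells outside the sort label, among them 1283 and 2972 cells with plasmacytoid dendritic cell markers (pDC-like). Cells were divided into classes by UMIs of marker genes, and 14 classes had at least 50 cells in both libraries. Tregs were read as the Foxp3 class, the noncycling T cells with at least 1 Foxp3 UMI, which held 412 cells (3.90%) of the WT-labelled library and 3022 cells (17.3%) of the dKO-labelled library. Within this class Nr4a1 was at 1081 and 2330 CPM and Cd4 at 214 and 948 CPM, and how these differences bear on the receptor chains was not tested. The authors report more hepatic Foxp3+ Tregs in dKO than in WT mice on this diet, which is the direction of the class sizes here. They also report higher Nr4a3 in dKO Tregs, but Nr4a3 in this class was at 404 and 324 CPM.

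The genes lie on 6 chromosomes of GRCm38. Il2ra (chr2:11642807-11693193, + strand), Il2rb (chr15:78479256-78495271, − strand), Il2rg (chrX:101264378-101268255, − strand) and Il7r (chr15:9505788-9530176, − strand) were annotated apart from one another. Il4ra (chr7:125552120-125579474, + strand) and Il21r (chr7:125603429-125633570, + strand) are neighbors, with 23955 bases between the end of the first and the start of the second. Il6ra lies at chr3:89864059-89913196 on the − strand and Il6st at chr13:112464070-112510086 on the + strand. The annotated spans of Gm37881 and Il2ra overlap on the same strand, as do those of Gm20489 and Il2rg. Overlap of exons and the counting of reads in the shared stretches were not examined.

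Promoter windows of 300 bases, from 250 before to 50 after the start of the gene as RefSeq places it, were read from RefSeq on GRCm38.p6 for 7 of the 8 genes. No window was matched to Il2rb, so its promoter was not searched. Both strands were searched for the letters AAAGGTCA, which is the NBRE bound by NR4A proteins as monomers, and for a gamma-activated site bound by STAT proteins (TTCNNNGAA), an AP-1 site (TGANTCA) and a FOXO site (GTAAACA). Among all 32851 promoter windows of this length, 1.51% held the NBRE letters, 8.30% the gamma-activated site, 7.81% the AP-1 site and 3.65% the FOXO site. Il21r held the NBRE and the FOXO letters, both on the reverse strand, Il7r held a gamma-activated site, and the other windows held none of the 4. Il21r and Il7r are printed because they are the windows with a match, shown in capitals. Il6ra is printed as the gene with the lowest ratio between the libraries in the Foxp3 class, and it holds no match. RefSeq places the start of Il7r inside the gene as GENCODE annotates it, so the Il7r window and its match lie wholly within the interval given above for Il7r. The windows are chr7:125603179-125603478 (+ strand) for Il21r, chr15:9529827-9530126 (− strand) for Il7r and chr3:89913147-89913446 (− strand) for Il6ra, each written 5′ to 3′ on the strand of the gene.
Il21r: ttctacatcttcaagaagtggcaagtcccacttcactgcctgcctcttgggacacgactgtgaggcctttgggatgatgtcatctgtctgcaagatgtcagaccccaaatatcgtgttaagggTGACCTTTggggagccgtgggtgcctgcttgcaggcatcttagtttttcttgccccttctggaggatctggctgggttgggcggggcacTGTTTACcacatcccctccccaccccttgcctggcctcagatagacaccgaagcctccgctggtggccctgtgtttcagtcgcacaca
Il7r: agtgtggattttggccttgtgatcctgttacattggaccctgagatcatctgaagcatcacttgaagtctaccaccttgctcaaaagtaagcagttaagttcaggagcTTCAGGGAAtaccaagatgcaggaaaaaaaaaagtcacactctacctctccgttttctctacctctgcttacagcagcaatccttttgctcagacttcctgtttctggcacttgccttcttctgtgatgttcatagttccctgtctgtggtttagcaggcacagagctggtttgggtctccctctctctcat
Il6ra: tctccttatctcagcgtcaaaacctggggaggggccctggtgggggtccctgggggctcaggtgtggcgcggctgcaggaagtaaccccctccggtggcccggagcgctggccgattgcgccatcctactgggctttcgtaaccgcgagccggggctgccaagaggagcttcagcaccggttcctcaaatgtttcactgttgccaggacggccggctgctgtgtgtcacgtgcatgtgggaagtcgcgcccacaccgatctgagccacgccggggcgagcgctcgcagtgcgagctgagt
A match is a description of letters and not of a bound site. The GC content of the windows was 56.0% for Il21r, 45.7% for Il7r and 66.0% for Il6ra, beside a median of 52.7% over all windows.

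In the Foxp3 class, 3 of the 8 receptor chains differed by more than 1.5-fold between the libraries: Il2rb was higher in the dKO-labelled library, and Il7r and Il6ra were lower. Among the 8631 genes with at least 50 UMIs in this comparison, 22.1% passed the same fold, 12.1% higher and 10% lower, so 3 of 8 is a small count against a common event. The median log2 ratio of the 8 chains was −0.15, beside 0.03 over all genes compared. Cells with 3 UMIs of other Treg genes (Ctla4, Ikzf2, Tigit) but no Foxp3 UMI, called Treg-type here, numbered 823 and 4141. Their name rests on this gate. Tigit and Ctla4 were among the 10 leading genes of the class, and so were Penk, Il10, Ccl5 and Gzmk. With the Foxp3 class and the cycling cells with a Foxp3 UMI, they are called the Treg classes below, by gate. Treg-type cells showed the same 3 chains past the fold, where 22.4% of all genes passed it. Differences of a receptor chain between the libraries were thus read within each class first.

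**Figure D1:**
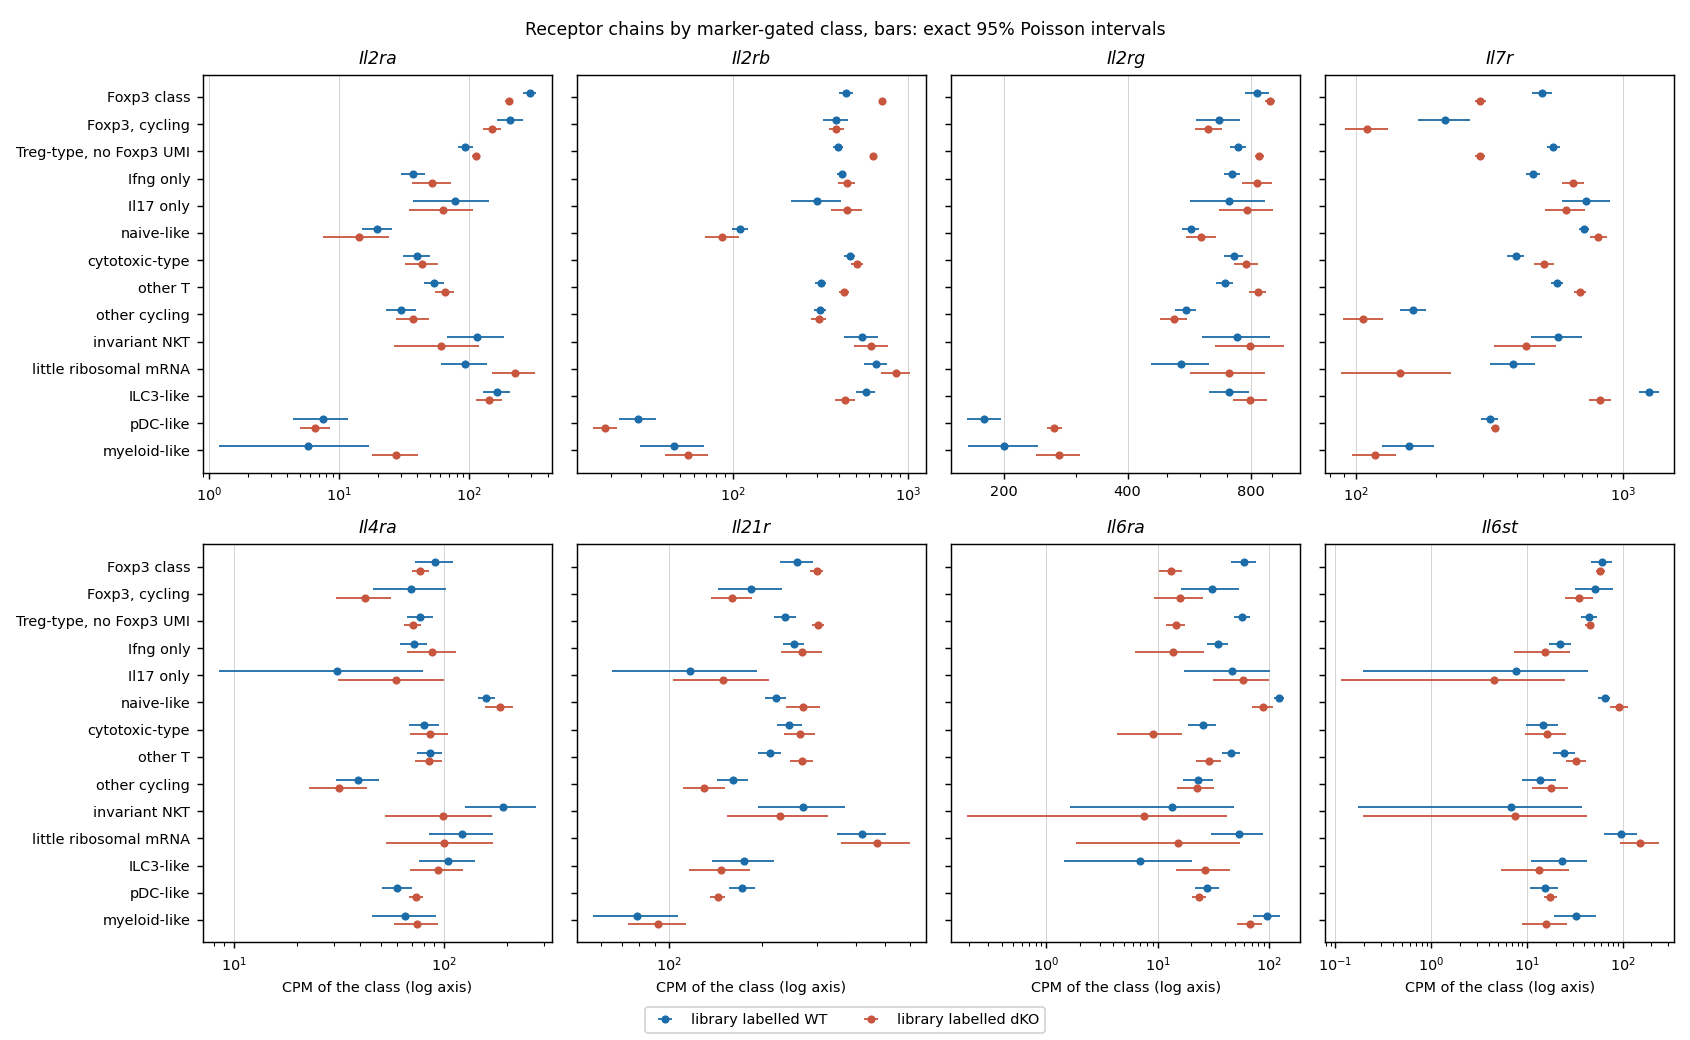
Level of each receptor chain (CPM of the summed UMIs of a class, log axis) in the 14 classes with at least 50 cells in both libraries. Points are the single library of each label and bars are exact 95% Poisson intervals; Il2ra is highest in the Foxp3 class of the WT-labelled library (292 CPM), Il7r in the ILC3-like class of both libraries, and Il6ra in the naive-like class of both. The interval of the next class overlaps for Il7r in the dKO-labelled library and for Il6ra in both.

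Il2ra, the chain that gives the IL-2 receptor its high affinity, was at 292 CPM (95% interval 260 to 327) in the Foxp3 class of the WT-labelled library and at 201 CPM (190 to 213) in that of the dKO-labelled library, a ratio of 0.688 (0.606 to 0.782). In the WT-labelled library the Foxp3 class stood above the next class, the cycling Foxp3 cells at 207 CPM (164 to 258), without overlap of intervals. In the dKO-labelled library the T cells with little ribosomal mRNA were at 223 CPM (149 to 320), and this interval held the value of the Foxp3 class. Treg-type cells without a Foxp3 UMI were at 93.6 and 112 CPM, so the Foxp3 class exceeded them 3.12-fold (2.62 to 3.73) in the WT-labelled and 1.80-fold (1.64 to 1.97) in the dKO-labelled library. The ratio in these Treg-type cells was 1.2 (1.03 to 1.39). The sum of both classes gave 154 and 153 CPM, a ratio of 0.997 (0.905 to 1.10), and in that sum the Foxp3 class supplied 1043588 UMIs beside 2415370 of Treg-type cells in the WT-labelled library and 5787857 beside 6728350 in the dKO-labelled library. The lower Il2ra of the Foxp3 class was thus not seen when Treg-type cells without a Foxp3 UMI were added, and that sum also mixed the classes in different shares.

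Most T cell classes outside the Treg classes had less Il2ra. The classes are named by their gate, and Klrk1, Fasl and Xcl1 of the cytotoxic gate were also among the 10 leading genes of the Ifng only class. T cells with an Ifng UMI and no Il17a or Il17f UMI (Ifng only) were at 37.1 and 52.2 CPM, those with an Il17a or Il17f UMI and no Ifng UMI (Il17 only) at 77.6 and 63.2 CPM, and naive-like cells, gated on naive T cell genes that include Ccr7, Lef1, Dapl1 and Igfbp4, at 19.6 and 14.1 CPM. Cells resembling group 3 innate lymphoid cells (ILC3-like) had higher values than these and than Treg-type cells without a Foxp3 UMI, with intervals that overlapped Il17 only cells in the WT-labelled library and Treg-type cells in the dKO-labelled library, at 162 (127 to 205) and 143 CPM (112 to 179). Invariant NKT cells, defined by a TRAV11-TRAJ18 contig, were at 115 CPM (67.1 to 185) and 60.8 CPM (26.2 to 120), from 17 and 8 UMIs. The lowest levels were in pDC-like cells, 7.47 and 6.57 CPM, and in myeloid-like cells of the WT-labelled library, where 3 UMIs gave 5.76 CPM. In each library the Il2ra of the Foxp3 class lay above that of the classes with Ifng or Il17 UMIs, summed as effector cells.

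Il2rb, the beta chain shared by the IL-2 and IL-15 receptors, was at 441 CPM (401 to 483) in the Foxp3 class of the WT-labelled library and at 708 CPM (686 to 730) in that of the dKO-labelled library, a ratio of 1.61 (1.46 to 1.77). Treg-type cells without a Foxp3 UMI were at 399 and 626 CPM, a ratio of 1.57 (1.46 to 1.69). Il17 only cells, at 303 and 447 CPM, had a similar ratio of 1.48 (1.01 to 2.2), and T cells with little ribosomal mRNA, at 650 and 852 CPM, had 1.31 (1.03 to 1.67). Other cycling cells, at 313 and 309 CPM (0.988, 0.868 to 1.12), and invariant NKT cells, at 542 and 615 CPM (1.13, 0.822 to 1.56), had intervals that hold 1. Ifng only cells were at 417 and 445 CPM (ratio 1.07, 0.933 to 1.22), cytotoxic-type cells at 462 and 510 CPM (1.10, 0.992 to 1.23) and cycling Foxp3 cells at 386 and 388 CPM (1.01, 0.832 to 1.22). The remaining T cells without a gate of their own (other T) lay between, at 316 and 430 CPM (1.36, 1.23 to 1.5). Naive-like cells had the lowest T cell level, 110 and 86.9 CPM, with a ratio of 0.792 (0.612 to 1.01). In ILC3-like cells the WT-labelled library was the higher, with 573 and 435 CPM (0.759, 0.631 to 0.912), beside Foxp3 at 4.64 and 72.2 CPM in that class.

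Il2rg, the common gamma chain itself, was the most even of the chains across T cells. In the Foxp3 class it was at 828 CPM (774 to 885) in the WT-labelled library and 889 CPM (865 to 914) in the dKO-labelled library, a ratio of 1.07 (0.999 to 1.16). This was the highest value of the 14 classes in both libraries, but its interval overlapped those of other classes in each, among them Treg-type cells without a Foxp3 UMI (743 CPM) in the WT-labelled and Ifng only cells (827 CPM) in the dKO-labelled library. The 12 T cell and ILC3-like classes spanned 539 to 828 CPM in the WT-labelled and 519 to 889 CPM in the dKO-labelled library. Naive-like cells (570 and 605 CPM) and other cycling cells (554 and 519 CPM) marked the lower part of that range. Only pDC-like (179 and 265 CPM) and myeloid-like cells (200 and 272 CPM) lay clearly below.

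Detection of the complete IL-2 receptor in single cells was read at a common depth. Each cell was thinned to 1000 UMIs so that depth did not enter, which left 364 of 412 and 2506 of 3022 cells of the Foxp3 class. Il2ra then had a share of 21.4% (Clopper-Pearson 95% interval 17.3 to 26.0) and 15.7% (14.3 to 17.2), Il2rb of 37.9% (32.9 to 43.1) and 49.7% (47.7 to 51.7), and Il2rg of 51.6% and 56.4%. Il2ra, Il2rb and Il2rg were found together in 18 cells, 4.95% (2.96 to 7.70), of the WT-labelled library and in 121 cells, 4.83% (4.02 to 5.74), of the dKO-labelled library. The interval from 18 cells was too wide to say whether this share followed that of Il2ra. Il2rb and Il2rg were found together in 17.9% (14.1 to 22.2) and 27.9% (26.1 to 29.7). Without thinning, the share with Il2ra, Il2rb and Il2rg was 23.5% and 13.9%, at a median depth of 2031 and 1548.5 UMIs, so the unthinned share was higher in the library whose Foxp3 cells were deeper. Effector cells had all 3 chains in 0.811% and 0.42% after thinning. In pDC-like cells, at a median of 1317 and 2871 UMIs, the 3 chains were found in 1 of 878 cells and in 0 of 2950 cells, which allows a share of up to 0.102% of cells with UMIs of all 3 at this depth and does not bound expression. Foxp3 cells with an Il2ra UMI also had Il2rb in 48.7% (37.2 to 60.3) and those without in 35.0% (29.4 to 40.8) of the WT-labelled library, and in 52.4% and 49.2% of the dKO-labelled library.

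Il7r, the specific chain of the IL-7 receptor, showed ratios below 1 in the Treg classes and above 1 in 4 other classes of T cells. It was at 496 CPM (455 to 541) in the Foxp3 class of the WT-labelled library and at 293 CPM (279 to 307) in that of the dKO-labelled library, a ratio of 0.589 (0.534 to 0.652). Treg-type cells without a Foxp3 UMI were at 549 and 292 CPM (0.533, 0.496 to 0.571), and cycling Foxp3 cells at 215 and 110 CPM (0.512, 0.384 to 0.687). Ifng only cells, in contrast, were at 461 (435 to 488) and 652 CPM (592 to 717), a ratio of 1.41 (1.26 to 1.58). Cytotoxic-type cells (397 and 507 CPM, 1.28, 1.14 to 1.43), other T cells (566 and 688 CPM, 1.22, 1.13 to 1.31) and naive-like cells (713 and 810 CPM, 1.13, 1.04 to 1.23) also lay above 1. The other T cell classes lay below 1: other cycling cells were at 164 and 106 CPM (0.65, 0.528 to 0.797), T cells with little ribosomal mRNA at 388 and 146 CPM (0.376, 0.218 to 0.616), invariant NKT cells at 569 and 433 CPM (0.76, 0.533 to 1.08) and Il17 only cells at 729 and 610 CPM (0.836, 0.638 to 1.1). Foxp3 in the T cells with little ribosomal mRNA was itself at 68.3 and 468 CPM. A ratio below 1 was also seen outside the Treg classes, as the other cycling cells show. In the WT-labelled library the Foxp3 class and Ifng only cells had overlapping intervals of Il7r, whereas in the dKO-labelled library the Foxp3 class lay below Ifng only cells without overlap.

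Cells with other identities had their own Il7r levels. ILC3-like cells were the highest of all classes, with 1249 CPM (1146 to 1359) in the WT-labelled and 821 CPM (746 to 902) in the dKO-labelled library, a ratio of 0.657 (0.578 to 0.748). They exceeded all T cells together 2.54-fold (2.32 to 2.77) and 2.27-fold (2.05 to 2.5). Only 1 of the 6 ILC3 marker genes, Il22, was among the 10 leading genes of this class, so its name rests on the gate. T cell genes in it also differed between the libraries, with Foxp3 at 4.64 and 72.2 CPM (ratio 15.6, 4.02 to 133) and Cd3e at 469 and 625 CPM (1.33, 1.12 to 1.60), and their part in the ratios of this class was not tested. Naive-like cells of the dKO-labelled library (810 CPM, 752 to 870) overlapped the ILC3-like interval, so the first rank there was not separable. Cycling cells had a low Il7r CPM whether or not they had Foxp3. Cycling against noncycling Foxp3 cells gave 0.433 (0.339 to 0.546) and 0.376 (0.309 to 0.453). Other cycling against effector cells gave 0.345 (0.304 to 0.391) and 0.167 (0.137 to 0.201). These are shares of class totals, and cycling Foxp3 cells had a median of 5474 and 5574 UMIs beside 2031 and 1548.5 in noncycling cells. Per cell their Il7r UMIs were not fewer, 83 in 66 cells beside 518 in 412, and 118 in 177 beside 1693 in 3022. Other cycling cells had fewer than effector cells, 310 in 472 beside 1267 in 1229, and 138 in 268 beside 561 in 561.

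**Figure D2:**
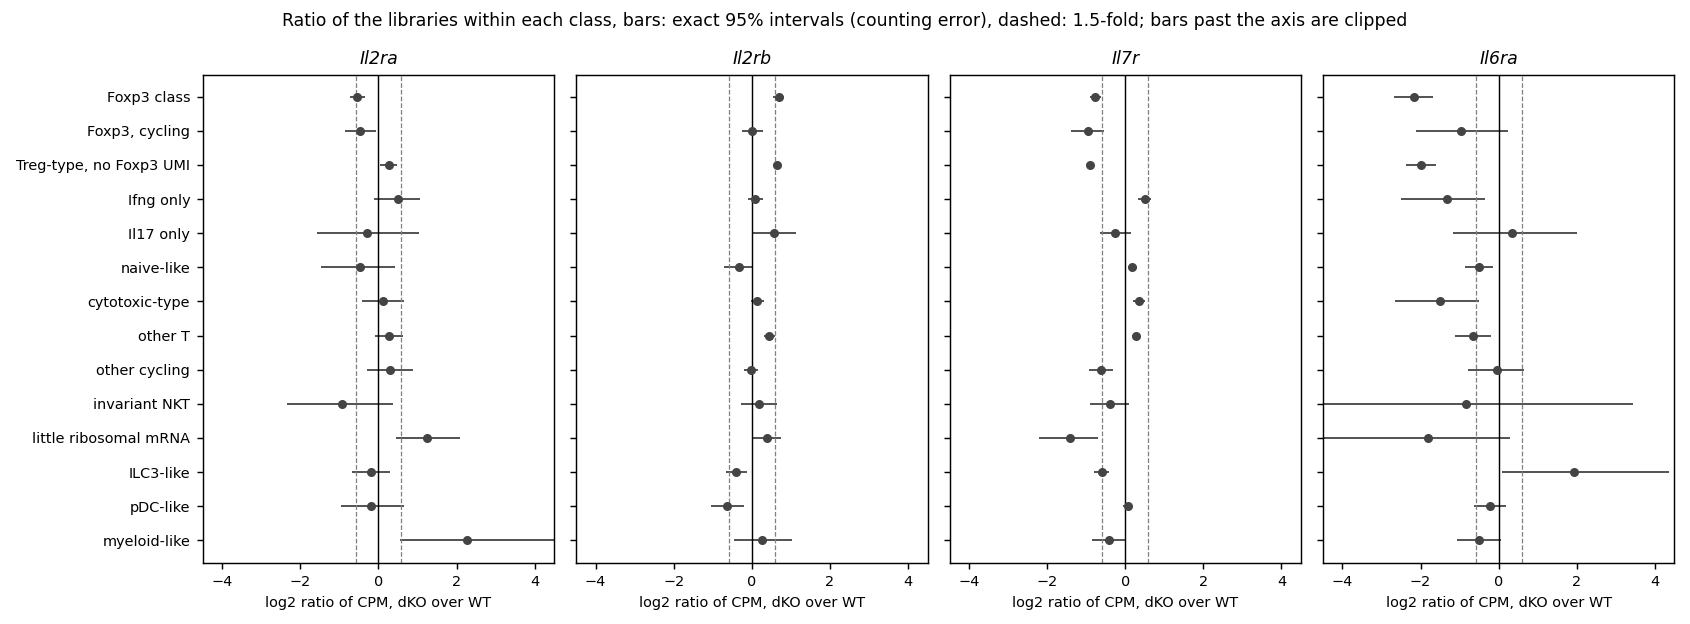
Log2 ratio of the CPM, dKO-labelled over WT-labelled library, in 14 classes for 4 receptor chains. Points are ratios of summed UMIs, bars exact 95% intervals (counting error), dashed lines 1.5-fold, and bars past the axis are clipped; Il7r lies below 0 in the 3 Treg classes and above 0 in Ifng only, naive-like, cytotoxic-type and other T cells, while Il2rb lies past 1.5-fold in the Foxp3 and Treg-type classes.

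Il4ra, the chain that pairs with Il2rg for IL-4, was higher in naive-like cells than in Tregs. Naive-like cells were at 159 CPM (145 to 174) and 184 CPM (157 to 214), which exceeded effector cells 2.29-fold (1.93 to 2.73) and 2.30-fold (1.73 to 3.09). In the Foxp3 class Il4ra was at 90.1 (72.8 to 110) and 77.1 CPM (70.1 to 84.6), a ratio of 0.855 (0.683 to 1.08) whose interval holds 1. Invariant NKT cells gave 190 CPM from 28 UMIs in the WT-labelled library, with an interval (126 to 274) that overlapped naive-like cells, and 98.7 CPM (52.6 to 169) from 13 UMIs in the dKO-labelled library. Cycling Foxp3 cells passed 1.5-fold between the libraries (69.9 and 42.0 CPM, 0.60), but from 27 and 45 UMIs and with an interval of 0.365 to 1.01. In that class 2 of the 7 chains with enough UMIs, Il7r and Il4ra, passed the fold, as did 23.3% of all genes.

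Il21r, which pairs with Il2rg for IL-21, had a lower CPM in cycling than in noncycling Foxp3 cells. The ratio was 0.713 (0.541 to 0.929) in the WT-labelled and 0.532 (0.452 to 0.622) in the dKO-labelled library. Il2ra (0.708 and 0.742) and Il2rg (0.806 and 0.708) were also lower, while Il6ra gave 0.523 and 1.21. Il21r UMIs per cell were not fewer, 71 in 66 cycling beside 269 in 412 noncycling cells, and 171 in 177 beside 1736 in 3022. The Foxp3 class was at 258 CPM (228 to 290) in the WT-labelled library and 300 CPM (286 to 314) in the dKO-labelled library, a ratio of 1.16 (1.02 to 1.33), and Treg-type cells without a Foxp3 UMI had a ratio of 1.28 (1.16 to 1.41). T cells with little ribosomal mRNA, a class led by Diaph3 and Mki67 and not a cell type, were the highest at 420 (348 to 504) and 468 CPM (358 to 602). In the WT-labelled library the interval of invariant NKT cells, at 271 CPM (194 to 369), overlapped theirs. Il17 only cells were at 116 CPM (65.1 to 192) and 149 CPM (103 to 209), and these intervals overlapped those of neighboring classes in both libraries. Against Ifng only cells, Il17 only cells had 0.461-fold (0.257 to 0.767) and 0.555-fold (0.370 to 0.809) as much Il21r, from 15 and 33 UMIs.

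Il6ra, the ligand-binding chain of the IL-6 receptor, had the lowest ratio of the 8 chains in the Foxp3 class. It was at 59.4 CPM (45.5 to 76.2, 62 UMIs) in the WT-labelled library and 13.1 CPM (10.3 to 16.4, 76 UMIs) in the dKO-labelled library, a ratio of 0.221 (0.156 to 0.314) and a log2 ratio of −2.18. Treg-type cells without a Foxp3 UMI were at 57.5 and 14.6 CPM (0.253, 0.193 to 0.330). The thinned share with an Il6ra UMI in the Foxp3 class was 6.04% (3.83 to 9.01) beside 1.08% (0.711 to 1.56), and the unthinned share 12.1% beside 2.42%. The share in pDC-like cells after thinning was 2.85% and 2.24%, so that of the Foxp3 class in the dKO-labelled library was below it.

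Other T cell classes also had less Il6ra in the dKO-labelled library. Their ratios were nearer 1, but the intervals of Ifng only and cytotoxic-type cells overlapped that of the Foxp3 class (0.156 to 0.314). T cells with little ribosomal mRNA had a ratio of 0.285 (0.0316 to 1.23), from 15 and 2 UMIs. Ifng only cells were at 34.7 and 13.8 CPM (0.398, 0.176 to 0.790, from 87 and 9 UMIs), cytotoxic-type cells at 25.4 and 9.0 CPM (0.354, 0.16 to 0.709) and other T cells at 45.8 and 29.2 CPM (0.636, 0.458 to 0.876). In naive-like cells, the highest class in both libraries, the levels were 125 CPM (112 to 138) and 88.0 CPM (69.9 to 109), a ratio of 0.707 (0.548 to 0.901). Values lay close together or ran the other way in Il17 only cells (46.6 and 58.7 CPM, 6 and 13 UMIs), other cycling cells (23.2 and 22.4 CPM) and ILC3-like cells (6.96 and 26.6 CPM, 3 and 14 UMIs, ratio 3.82, 1.07 to 20.7). Myeloid-like cells had 96.0 CPM (71.3 to 127) and 67.7 CPM (52.1 to 86.4), with a ratio of 0.705 (0.479 to 1.04). Their intervals overlapped those of naive-like cells in both libraries, so the first rank was not separable.

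Il6st, the signaling chain gp130, did not share this pattern. In the Foxp3 class it was at 61.3 CPM (47.2 to 78.3) and 58.2 CPM (52.2 to 64.8), a ratio of 0.949 (0.725 to 1.26). Naive-like cells were at 64.8 and 92.4 CPM (1.42, 1.09 to 1.85), cytotoxic-type cells at 14.8 and 16.2 CPM, and effector cells at 21.3 and 12.5 CPM. The last pair passed 1.5-fold with 57 and 11 UMIs and an interval of 0.278 to 1.13, and it was the only chain of the 8 to pass in effector cells, where 17.2% of genes did. Its log2 ratio there was −0.77, and −0.16 with gates at 2 UMIs, which is short of the fold. Over the alternatives it reached −1.48 with cells with a contig. For Il6ra the log2 ratio in effector cells was −0.47, and −0.72 with mixed cells put back. Il6ra and Il6st were found together in 0 of 364 thinned Foxp3 cells of the WT-labelled library, which allows up to 0.824% of cells with both UMIs at this depth, and in 1 of 2506 of the dKO-labelled library, so the complete IL-6 receptor could not be followed in single cells at this depth.

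In the remaining classes few chains passed the fold. Il6ra alone passed in Ifng only (17.5% of genes passed), cytotoxic-type (14.1%, 7 chains with enough UMIs) and other T cells (13.6%). None of the 8 passed in naive-like cells (14.9%), none of 3 in Il17 only cells (19%), none of 4 in invariant NKT cells (19%) and none of 6 in myeloid-like cells (19.2%). Il7r alone passed in other cycling cells (16.4%, 7 chains) and ILC3-like cells (19%, 6 chains), and Il2rb alone in pDC-like cells (13.5%), where it was at 28.6 and 18.6 CPM, levels not above the free RNA background. In T cells with little ribosomal mRNA, where 36.9% of genes passed, Il2ra was higher (93.4 and 223 CPM) and Il7r lower (388 and 146 CPM) in the dKO-labelled library. Foxp3 in that class was at 68.3 and 468 CPM (ratio 6.86, 4.04 to 12.2), and its part in these differences was not tested.

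Against effector cells of the same library, Il2ra and Il6st were higher in the Foxp3 class in both libraries. Il2ra exceeded effector cells 7.30-fold (5.84 to 9.18) in the WT-labelled and 3.67-fold (2.75 to 5.01) in the dKO-labelled library, and Il6st exceeded them 2.87-fold (1.98 to 4.18) and 4.65-fold (2.56 to 9.40). Il6st was not particular to the Foxp3 class, since naive-like cells exceeded effector cells 3.04-fold (2.25 to 4.16) and 7.37-fold (3.92 to 15.3). These 2 were the chains past 1.5-fold in the same direction in both libraries, beside 7.46% of all genes. Within each library, 3 chains were higher in the WT-labelled (16% of genes passed) and 3 higher and 2 lower in the dKO-labelled library (26.5%). Il2rb was near effector cells in the WT-labelled library (1.07, 0.958 to 1.19) and above them in the dKO-labelled library (1.56, 1.41 to 1.74). Il7r was likewise near them in the WT-labelled library (1.05, 0.943 to 1.16) but below them in the dKO-labelled library (0.458, 0.416 to 0.504). Il6ra was above effector cells in the WT-labelled library (1.71, 1.22 to 2.38) and below them in the dKO-labelled library (0.524, 0.322 to 0.885), from 62 and 93 UMIs in the first and 76 and 22 in the second.

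**Figure D3:**
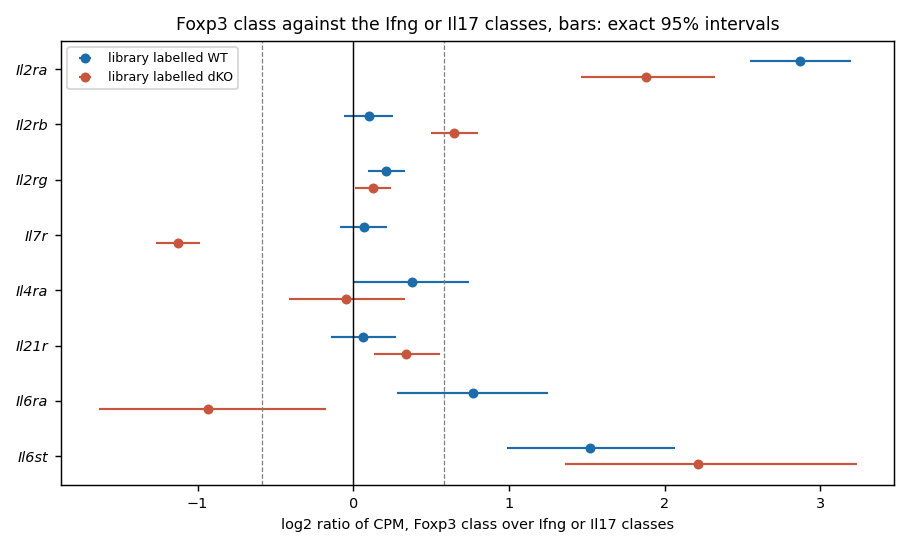
Log2 ratio of the CPM of the Foxp3 class over that of the Ifng or Il17 (effector) classes within each library, for the 8 receptor chains. Points are the single library of each label, bars exact 95% intervals (counting error) and dashed lines 1.5-fold; Il2ra and Il6st lie to the right in both libraries, and Il6ra lies on opposite sides of 0 in the 2 libraries.

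Cells with a Klrg1 UMI made up 129 of 412 cells of the Foxp3 class in the WT-labelled and 1268 of 3022 in the dKO-labelled library, and cells with an Il10 UMI 30 and 628. The ratios were therefore read within 7 divisions of the class, which overlap. Il2rb was higher in the dKO-labelled library in all 7, with ratios from 1.25 (0.930 to 1.71, cells with an Il10 UMI) to 1.85 (1.39 to 2.53, clones of 2 or more cells). Il7r was lower in all 7, from 0.374 (0.282 to 0.504) in cells with an Il10 UMI to 0.764 (0.637 to 0.919) in cells with an Il1rl1 UMI. Il6ra was lower in all 7 as well. Cells without a UMI of Klrg1, Il10 or Il1rl1 had 78.3 and 14.2 CPM (0.181, 0.110 to 0.296), and Klrg1-bearing cells had 38.1 and 11.6 CPM (0.304, 0.159 to 0.605). The lowest ratio was in clones of 2 or more cells, 49.5 and 3.75 CPM from 6 and 5 UMIs (0.0758, 0.0183 to 0.298).

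Il2ra depended on the division. Cells with a UMI of Il1rl1, the IL-33 receptor of tissue Tregs, were at 447 and 424 CPM, a ratio of 0.947 (0.772 to 1.17). Cells with an Il10 UMI were at 550 CPM (30 cells, 44 UMIs) and 188 CPM (628 cells), a ratio of 0.342 (0.248 to 0.482), and clones of 2 or more cells were at 454 and 182 CPM (0.400, 0.298 to 0.547). Clones of 1 cell had a ratio of 0.837 (0.677 to 1.04) and cells without a UMI of Klrg1, Il10 or Il1rl1 had 0.835 (0.668 to 1.05). Within a library, Il1rl1-bearing cells had more Il2ra than other Foxp3 cells, 1.95-fold (1.55 to 2.46) and 2.53-fold (2.22 to 2.88), and more Il7r, 1.34-fold (1.12 to 1.61) and 1.74-fold (1.54 to 1.96). Klrg1-bearing cells had more Il2ra in both libraries (1.75-fold and 1.22-fold). Il10-bearing cells had 2.03-fold more (1.44 to 2.80) in the WT-labelled and 0.919-fold as much (0.797 to 1.06) in the dKO-labelled library.

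**Figure D4:**
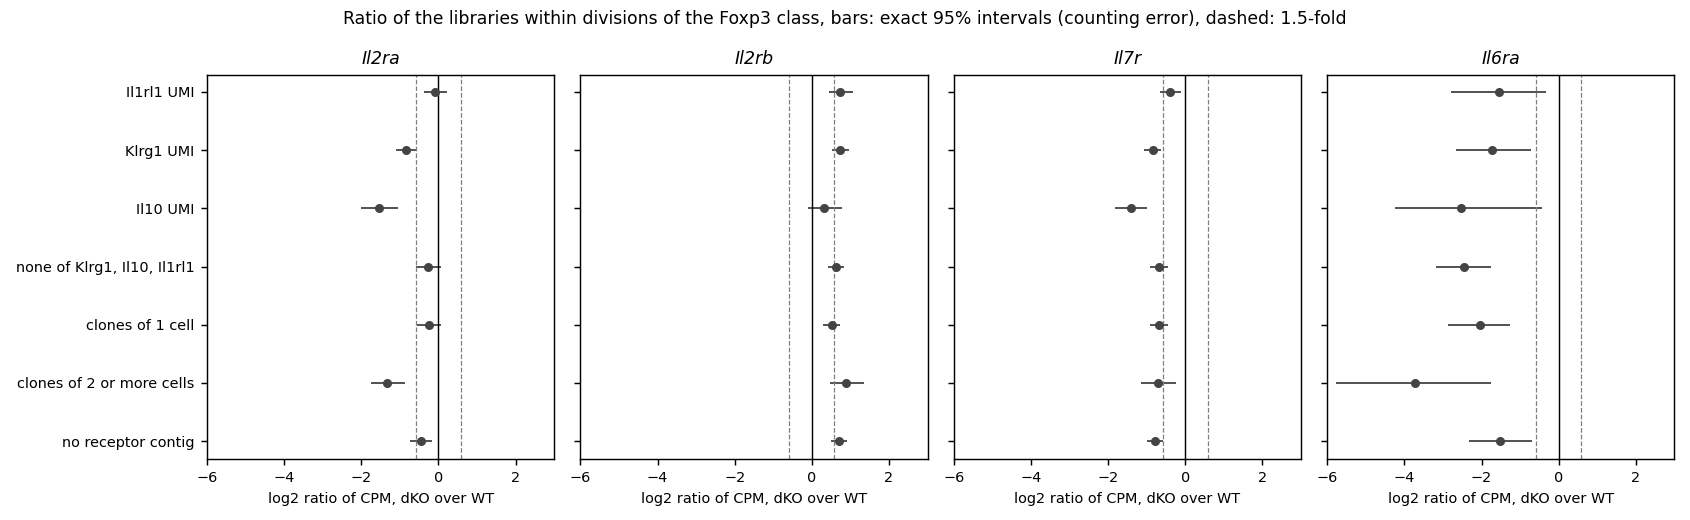
Log2 ratio of the CPM, dKO-labelled over WT-labelled library, in 7 overlapping divisions of the Foxp3 class for 4 receptor chains. Points are ratios of summed UMIs, bars exact 95% intervals (counting error) and dashed lines 1.5-fold; Il2rb lies above 0 and Il7r and Il6ra below 0 in every division, while Il2ra ranges from 0.947-fold (Il1rl1) to 0.342-fold (Il10).

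T cell receptor contigs allowed expanded clones to be set beside single cells. Among Foxp3 and Treg-type cells of the dKO-labelled library, clones of at least 10 cells (889 cells) had 86.5 CPM Il2ra and clones of 1 cell (1250 cells) had 177 CPM, a ratio of 0.489 (0.400 to 0.594). Il7r gave 156 and 324 CPM (0.482, 0.416 to 0.557) and Il6ra 3.25 and 22.4 CPM from 5 and 59 UMIs (0.145, 0.0455 to 0.359). Il2rb ran the other way, with 766 and 554 CPM (1.38, 1.28 to 1.49). In the WT-labelled library, with 75 and 468 cells, the same ratios were 0.891 (0.569 to 1.34) for Il2ra, 0.950 (0.760 to 1.18) for Il7r, 0.641 (0.285 to 1.26) for Il6ra and 0.909 (0.705 to 1.16) for Il2rb. All 4 of these intervals hold 1. These sums pool Foxp3 and Treg-type cells, and the mix in each clone group is not given. Within the Foxp3 class alone, clones of 2 or more cells had 182 CPM Il2ra and clones of 1 cell 223 CPM in the dKO-labelled library. In the WT-labelled library Il2ra ran the other way, with 454 and 267 CPM. Il7r gave 237 and 301 CPM in the dKO-labelled and 388 and 484 CPM in the WT-labelled library. Il2rb gave 734 and 638 CPM, then 396 and 447 CPM. Cells of a clone share their origin, and the largest clone alone supplied 341 of the 889 cells. In that clone Il2rb was 1.53-fold (1.37 to 1.70), Il2ra 0.599-fold (0.447 to 0.790) and Il7r 0.763-fold (0.630 to 0.917) the level of clones of 1 cell.

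Over all cells the ratios also reflected class shares, and weighting moved the chains in different directions. Il2ra was at 57.6 and 78.8 CPM over all cells (1.37, 1.28 to 1.46), although it was lower in the Foxp3 class of the dKO-labelled library. When the classes of the dKO-labelled library were weighted by the UMI shares of the WT-labelled library, the Il2ra ratio was 1.10. Il7r was at 465 and 353 CPM (0.758, 0.739 to 0.777), and 0.993 after weighting. Il2rb barely moved, with 1.23 before and 1.21 after weighting. Il2rg (1.05 and 1.13), Il21r (1.04 and 1.09) and Il6st (1.06 and 1.15) moved away from 1, and Il4ra (0.888 and 1.03) crossed it. Il6ra was at 52.1 and 22.9 CPM (0.44, 0.403 to 0.480) and 0.576 after weighting, and it was the only chain past 1.5-fold over all cells (25.2% of genes passed), after weighting (16.2%) and in both (13.5%). Over T cell classes only, Il2ra (1.78, 1.66 to 1.91) and Il2rb (1.64, 1.59 to 1.69) were higher and Il6ra (0.355, 0.315 to 0.400) was lower, beside 22.3% of genes.

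**Figure D5:**
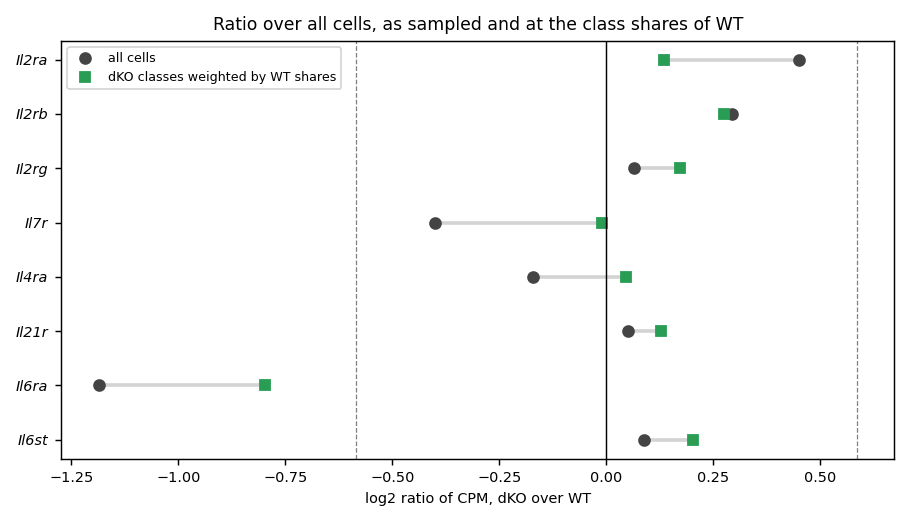
Log2 ratio of the CPM over all cells, dKO-labelled over WT-labelled library, as sampled (circles) and with the classes of the dKO-labelled library weighted by the shares of the WT-labelled library (squares). Dashed lines mark 1.5-fold; Il2ra and Il7r move toward 0 after weighting, and Il6ra stays past the fold.

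Free RNA in droplets can place T cell transcripts in other cells, and pDC-like and myeloid-like cells were read against it. Cd6, Cd28, Icos, Skap1 and Bcl11b, genes of T cells, were in pDC-like cells at 0.0402 to 0.142 of their T cell level in the WT-labelled and 0.0371 to 0.0941 in the dKO-labelled library. Il2ra (0.111 and 0.055) lay within this range in both libraries, and Il2rb (0.084 and 0.0332) lay within or below it, so their counts in pDC-like cells were not above background. Il7r (0.644 and 0.915), Il4ra (0.661 and 0.958), Il21r (0.758 and 0.524), Il6ra (0.501 and 1.2), Il6st (0.425 and 0.392) and Il2rg (0.265 and 0.330) lay above it. In myeloid-like cells the reference genes were at 0.0766 to 0.356 and 0.0826 to 0.155, and Il6ra at 1.73 (1.27 to 2.30) and 3.43 (2.60 to 4.48) of the T cell level. The myeloid-like class was led by Fn1, Mmp12, Mmp19 and Chil3, and its summed neutrophil markers (S100a8, S100a9, Ly6g) were at 17.3 and 10622 CPM, so the class was not of the same makeup in the libraries.

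Partners of the receptors were counted from a list of 42 ligands, related receptors, kinases, STAT factors, targets and sheddases. In the Foxp3 class 24 of them had enough UMIs, and 1 was more than 1.5-fold higher and 5 were lower in the dKO-labelled library, with a median log2 ratio of −0.05. Of all genes in this comparison, 22.1% passed, 12.1% higher and 10% lower. The higher one was Jak3, the kinase bound to the common gamma chain, at 48.9 and 93.5 CPM (ratio 1.91). Il31ra, a receptor of the gp130 family, was at 333 and 116 CPM (0.35). Il9r, another partner of the gamma chain, was at 22.0 and 8.29 CPM (0.376), and Bcl2, a survival gene downstream of IL-7 and IL-2, at 101 and 40.9 CPM (0.407). Clcf1, a cytokine of the IL-6 family, was at 22.0 and 12.3 CPM (0.557), and Stat5b also passed the fold, lower. Stat5a (72.8 and 70.5 CPM) and Cish (264 and 251 CPM), a feedback gene of IL-2 signaling, did not pass, nor did Adam10 and Adam17, which cleave the IL-6 receptor.

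The ligands themselves were scarce, and 1 of 14, Clcf1, reached 50 UMIs in the Foxp3 class. Il2 in the Foxp3 class was at 16.3 CPM from 17 UMIs and 1.55 CPM from 9 UMIs, and in effector cells at 59.9 and 26.2 CPM. Over all T cell classes it was at 34.3 and 10.8 CPM (0.315), and Il4 at 21.6 and 12.2 CPM (0.562). Il6 had 7 UMIs in T cells of the WT-labelled library (0.433 CPM) and 3 in those of the dKO-labelled library (0.149 CPM). Il7 had 6 and 10 UMIs and Il21 52 and 79 UMIs in the same cells. Fewer transcribing cells and less RNA per cell cannot be told apart in these sums.

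The profiles over classes and libraries, 28 in all, also showed which genes ran most like each receptor chain among 6509 genes compared. The values are Pearson correlations of log2(CPM + 1) over profiles that share libraries and depth, and they are given as a description. Il2ra was most like Dgat1 (0.872), Tnfrsf9 (0.870) and Nrip1 (0.858), and Il2rg most like Gimap5 (0.947), Ltb (0.944) and Il27ra (0.934). Il2rb was most like Isy1 (0.946), Ndfip1 (0.934) and Sytl3 (0.931), and Il21r most like Parp4 (0.896), Rsrc2 (0.888) and Inpp4b (0.887). Lower values headed the lists of Il7r (Btg1 0.840, Atn1 0.830, Eif4a2 0.802), Il6st (Elovl6 0.797, Arid4a 0.790, Cep112 0.788), Il4ra (Ppp1r13b 0.774, Klhl24 0.766, Cd53 0.753) and Il6ra (Actn1 0.696, Pdlim4 0.693, Atp1b3 0.650). Among the chains themselves, the IL-2 receptor chains ran together (Il2rb and Il2rg 0.886, Il2ra and Il2rb 0.842, Il2ra and Il2rg 0.757), whereas Il6ra and Il6st gave 0.251 and Il6ra and Il2rb −0.469.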

How the data were processed

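Hepatic CD4+ T cells of 1 library per genotype were measured by 5′ single-cell RNA and T cell receptor sequencing. The authors deposited UMI counts per gene and cell, made with Cell Ranger 7.0.1 (per the file headers) on mm10 (per the labels), without normalization, and a table of receptor contigs with UMI counts. No value column was left unused for want of a sample. Bulk RNA-seq was not analysed here. The 8 genes, the gene lists and the gates were chosen with earlier results of these data known.

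Cells were kept at over 200 genes and below 5% of counts from mitochondrial genes, and no cell had fewer than 500 UMIs. Classes were gated on marker UMIs: non-T lineages at 3 UMIs of their markers, T cells by a contig or 2 UMIs of Cd3d, Cd3e, Cd3g and Trac, then in turn little ribosomal mRNA (under 8% of UMIs), invariant NKT, cycling (3 UMIs), Foxp3 (1 UMI), Treg-type (3 UMIs), Ifng and Il17 (1 UMI), naive-like and cytotoxic-type (2 UMIs each). Cells that passed 2 non-T gates, or 1 with a contig or 5 UMIs of the T cell genes, were set aside as mixed (570 and 1444 cells). The ILC3-like gate did not count for this. Cells of 1 non-T gate with fewer UMIs of the T cell genes and no contig stayed in their non-T class. Doublets were otherwise kept, and an alternative removed 1008 and 2527 cells with the highest Scrublet scores or 2 TRB chains. UMIs were summed per class and library and divided by the class total (CPM). Ratios have exact conditional binomial 95% intervals, levels exact Poisson intervals and shares Clopper-Pearson intervals. With 1 library per group no test was made, so no p-value is given. Genes with 50 UMIs over both sets of cells entered the 1.5-fold counts. A count of 0 allows 3 counts, or 0.128 and 0.0794 CPM over all cells of the libraries. All 8 genes are named. From the list of 42 related genes, the 5 with ratios farthest from 1 in the Foxp3 class are named with values, and so are the ligands or partners of a chain. Some genes of the lists and 1 division of the Foxp3 class are not reported here. For each chain the 3 genes of highest correlation are named. Gene positions are from GENCODE M21, in which 32158 of 32285 features were found. The scripts were tested on simulated data. Tools were Python 3.11.15 with scipy 1.17.1 for intervals, pandas 2.3.3 and numpy 2.4.6 for sums, scanpy 1.11.5 for Scrublet and matplotlib 3.10.9 for plots, and R 4.3.3 with edgeR 4.0.16 for TMM factors only.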

Additional observations from a re-analysis of the deposited data

Results flagged for a closer look

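Il6ra, Il4ra and Il7r stood on opposite sides of effector cells in the 2 libraries. For Il6ra, the log2 ratio of the Foxp3 class over the Ifng or Il17 classes was 0.77 in the WT-labelled library, from 62 and 93 UMIs, and −0.93 in the dKO-labelled library, from 76 and 22 UMIs. For Il4ra the same ratios were 0.38 and −0.05, the latter with an interval on both sides of 0. For Il7r they were 0.07, whose interval also holds 0, and −1.13. With 1 library per genotype, none of these differences was tested. Over the alternatives tried, the value of Il6ra stayed between 0.55 and 1.13 in the WT-labelled library and between −1.29 and −0.72 in the dKO-labelled library. For Il4ra it ranged from 0.10 to 0.43 and from −0.33 to 0.21. For Il7r it ranged from −0.08 to 0.24 and from −1.37 to −1.04.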

How the results depend on the processing

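The 3 chains past 1.5-fold in the Foxp3 class (Il2rb, Il7r and Il6ra) passed it under every alternative run, and gates at 2 UMIs, putting back mixed cells and keeping only cells with a contig each added Il2ra, lower in the library labelled dKO, to make 4. Over all cells, averaging CPM cell by cell gave 3 chains past the fold (Il2ra and Il2rb higher, Il6ra lower) in place of 1. Keeping only T cells with a contig lowered the log2 ratio over all cells from 0.45 to 0.15 for Il2ra. For Il2rb it went from 0.29 to −0.002. The share of Foxp3 cells with all 3 IL-2 receptor chains, 4.83% in the library labelled dKO, was 15.0% after thinning to 2000 UMIs, 13.9% without thinning, 6.23% with gates at 2 UMIs and 3.56% when Treg-type cells were added. In the library labelled WT it was 4.95%, and 17%, 23.5% and 2.71% after thinning to 2000 UMIs, without thinning and with Treg-type cells. Adding Treg-type cells was chosen after seeing the data. Of 464 single ratios under alternatives, 438 stayed within the interval of the reported value, 26 left it and 0 past the fold changed sign. The Foxp3 log2 ratio ranged over −2.71 to −1.98 for Il6ra, −0.87 to −0.69 for Il7r, 0.61 to 0.77 for Il2rb and −0.67 to −0.00 for Il2ra, the last with Treg-type cells added. The log2 TMM factors, which are subtracted from log2 ratios and so raised them, were −0.07 in the Foxp3 class and −0.03 over all cells. No paired analysis was possible because each genotype had a single library. Depth limited Il6ra and Il6st, among other chains, with under 100 UMIs per library in several classes.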

Other observations

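Within the Foxp3 class, the common gamma chain and the IL-4 receptor chain varied with Klrg1 in the WT-labelled library. Cells with a Klrg1 UMI had 1.34-fold (1.17 to 1.54) the Il2rg and 0.566-fold (0.341 to 0.912) the Il4ra of cells without. In the dKO-labelled library the same ratios were 1.04 (0.981 to 1.10) and 0.854 (0.704 to 1.03). Il21r was 1.2-fold (1.05 to 1.37) as high in Il1rl1-bearing cells of the dKO-labelled library and 0.933-fold (0.704 to 1.22) in those of the WT-labelled library.

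Il27ra, a receptor that signals with gp130, was at 120 CPM (99.7 to 143) and 177 CPM (166 to 188) in the Foxp3 class and at 121 and 166 CPM in effector cells. Stat3, which gp130 receptors activate, was at 360 and 527 CPM in the Foxp3 class and at 232 and 240 CPM in effector cells. Il4 ran in different directions by class, with 25.1 and 50.6 CPM in Ifng only cells and 21.1 and 6.84 CPM in Treg-type cells without a Foxp3 UMI. None of these differences was tested.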
